A study of Homo sapiens with 48 samples.

Results

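Acalabrutinib at 24 h in HBL1 is the comparison of HBL1 cells kept for 24 h in 50 nM acalabrutinib with HBL1 cells kept for 24 h in the solvent DMSO. The members were chosen by their labels alone, and they are 4 of the 48 RNA-seq libraries of the series, 2 with acalabrutinib and 2 with DMSO. HBL1 is an established human line of diffuse large B cell lymphoma (DLBCL), and all cells here, controls included, carried the genotype label Cas9 engineered. The series also holds a second DLBCL line, TMD8, the same compound at 3 h and 6 h, the PI3K inhibitor copanlisib at 20 nM and the oligosaccharyltransferase inhibitor NGI-1 at 5 uM. All 48 libraries shared the filter on low counts and the estimate of spread behind each p-value, and the NGI-1 libraries entered no comparison given here. Cells were grown in advanced RPMI with 5% FBS, and total RNA was taken from each culture sample. The labels speak of duplicates without saying that these were separate cultures, so the p-values below speak only of how these samples vary, which may include no more than technical variation. Each line is 1 cell line and not a set of patients.

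Acalabrutinib binds covalently to Bruton tyrosine kinase (BTK), a kinase that acts just below the B cell receptor. In an activated B cell the receptor chains CD79A and CD79B recruit the kinases LYN and SYK, BTK then activates PLCG2, and the signal passes on through the protease MALT1 to the NF-kB transcription factors. A parallel branch through PI3K and AKT keeps the FOXO transcription factors out of the nucleus, and both branches feed MYC, growth and division. Lymphoma lines of the activated B cell-like kind, to which HBL1 is commonly assigned, are known for constant signalling along this route.

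Promoter and miRNA sequences of 4 genes are shown because each stands for a gene group that moved in the data: an NF-kB feedback gene, a FOXO target, a replication gene and the miRNA carried by MIRHG2. They are RefSeq sequences on GRCh38.p14, read 5′ to 3′ on the gene's strand, while the deposited counts were made on hg19, so no position of one build was carried to the other. The windows hold 250 bases before and 50 bases after the annotated start: NFKBIA at chr14:35404700-35404999 (minus strand), PIK3IP1 at chr22:31292439-31292738 (minus strand, 1 of its 2 windows) and MCM6 at chr2:135876394-135876693 (minus strand). Capitals mark the letters GGNNTTTCC in NFKBIA (2 matches), GTAAACA in PIK3IP1, and TTTCGCGC or TTTGGCGC in MCM6, all searched on both strands, and in MCM6 the 4 matches overlap in pairs. In the miRNA, at chr21:25573983-25574006 (plus strand), capitals mark the seed, bases 2 to 8.
NFKBIA: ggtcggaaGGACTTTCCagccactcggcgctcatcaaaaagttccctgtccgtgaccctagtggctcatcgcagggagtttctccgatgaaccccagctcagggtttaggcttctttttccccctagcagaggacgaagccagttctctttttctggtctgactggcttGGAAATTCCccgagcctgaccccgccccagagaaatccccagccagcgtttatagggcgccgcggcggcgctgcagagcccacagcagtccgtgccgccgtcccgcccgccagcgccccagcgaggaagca
PIK3IP1: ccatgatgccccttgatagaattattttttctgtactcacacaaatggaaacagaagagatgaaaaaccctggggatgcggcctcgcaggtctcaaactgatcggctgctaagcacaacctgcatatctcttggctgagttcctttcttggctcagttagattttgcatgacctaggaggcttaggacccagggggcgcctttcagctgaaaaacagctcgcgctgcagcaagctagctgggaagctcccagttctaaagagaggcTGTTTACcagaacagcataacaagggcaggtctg
MCM6: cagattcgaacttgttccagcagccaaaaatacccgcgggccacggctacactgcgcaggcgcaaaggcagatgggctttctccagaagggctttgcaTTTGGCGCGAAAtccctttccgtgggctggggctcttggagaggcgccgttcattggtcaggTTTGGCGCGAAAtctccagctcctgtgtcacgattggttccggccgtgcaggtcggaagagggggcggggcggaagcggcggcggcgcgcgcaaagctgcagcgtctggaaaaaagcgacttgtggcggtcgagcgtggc
hsa-miR-155-5p: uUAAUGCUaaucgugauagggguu

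The GGNNTTTCC letters stood in the windows of 2078 of 27305 genes (7.61%) and of 13 of the 16 NF-kB subunit and feedback genes that had a window (81.2%), against 0 of 14 FOXO genes and 4 of 24 replication genes (16.7%). GTAAACA stood in the windows of 4.19% of all genes and of 4 of 14 FOXO genes, namely BCL2L11, BTG1, PIK3IP1 and TXNIP. The TTTCGCGC or TTTGGCGC letters stood in those of 1.4% of all genes and of 8 of 24 replication genes. These motifs were picked with results of these data known, and a match describes the letters of a window and not a bound site.

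The acalabrutinib libraries held 8360555 and 9160393 counted reads and the DMSO libraries 10151954 and 8085282, within the range of 7165377 to 11999050 over all 48 libraries. Of 25066 genes in the table, 13881 had enough reads to be tested. Levels are given in CPM (counts scaled to a common library size) for each library in replicate order, and changes as log2 fold changes of acalabrutinib over DMSO ± SE. A gene was called where the adjusted p of edgeR's quasi-likelihood test was under 0.05, with Benjamini-Hochberg adjustment over all genes tested. The replicates were not repeats of 1 library, since the chi-square per degree of freedom of their counts was 4.51 for acalabrutinib and 4.24 for DMSO. Of the markers of other cells, 0 of 5 T and NK cell genes, 0 of 3 myeloid genes and 0 of 7 stromal or epithelial genes with enough reads were called. The summed T and NK list stood at 34.0 and 31.1 CPM with acalabrutinib and at 29.8 and 26.2 with DMSO, led by PRF1, and CD2, CD3D and CD3G had 0 reads. The myeloid list summed to 0.84 and 2.07 CPM with acalabrutinib and to 2.36 and 1.48 with DMSO, with LYZ, CD163 and S100A8 at 0. The stromal and epithelial list summed to 19.6 and 18.8 CPM with acalabrutinib and to 14.2 and 18.6 with DMSO, led by EPCAM and COL1A2. The epithelial marker EPCAM had 129 and 105 reads with acalabrutinib and 111 and 94 with DMSO. COL1A2 had 30 and 59 reads with acalabrutinib and 28 and 42 with DMSO, while VWF, PDGFRA and LUM had 0.

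After 24 h of acalabrutinib, 1058 genes were higher (7.62% of those tested) and 1585 were lower (11.4%), together 2643 (19.0%). Lower genes were more numerous, but the larger changes were increases. Among the called genes 276 were higher and 80 lower by at least 2-fold, and 60 were higher and 14 lower by at least 4-fold. The median change was 0.63 for the genes called higher and -0.40 for those called lower, against -0.01 over all genes tested. Both acalabrutinib libraries lay beyond both DMSO libraries in 1057 of the higher and 1584 of the lower genes, and the same held for 55.2% of all genes tested. The total of 2643 became 1254 without DMSO replicate 1 and 1512 without acalabrutinib replicate 1. With no filter on low counts, which also changes the scaling, 1216 genes were higher and 1131 lower. With RLE size factors 1164 were higher and 1321 lower. The split between directions thus depended on the processing, and the reason was not tested. RNA was measured in bulk, so fewer cells of a kind and less RNA per cell cannot be told apart.

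**Figure D1:**
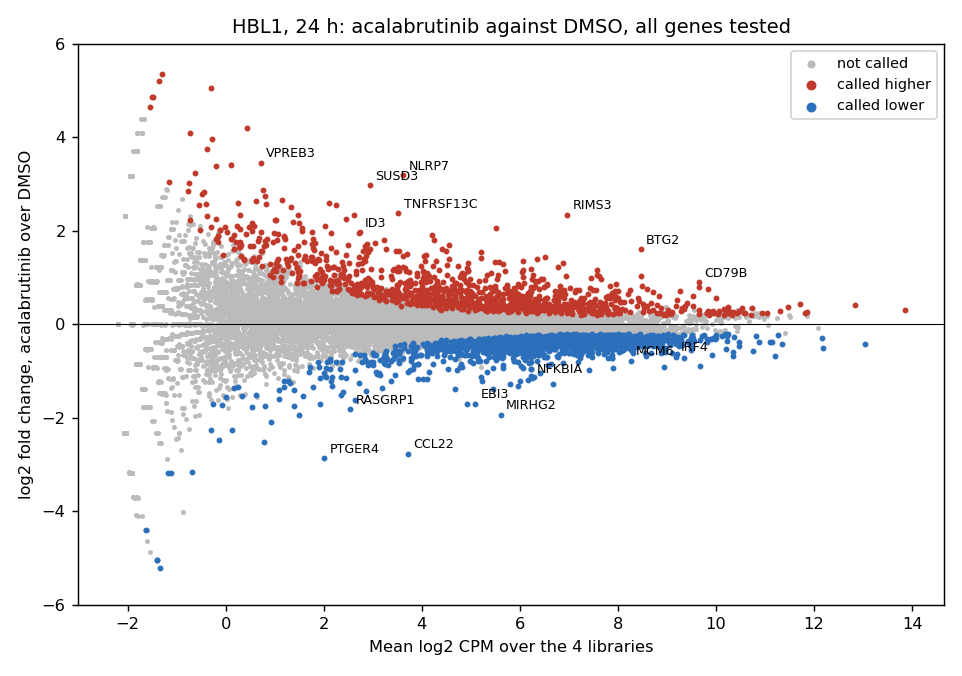
Change at 24 h against level for all 13881 tested genes: the x axis is the mean log2 CPM and the y axis the log2 fold change of acalabrutinib over DMSO in HBL1, with called genes coloured by direction and 1 gene outside the plotted range left out. The 1585 lower genes outnumber the 1058 higher ones, and the named points with the largest changes, such as NLRP7 and PTGER4, lie at low to middle levels.

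Among the 14 largest increases, NLRP7, an NLR family gene, had 44.9 and 28.2 CPM with acalabrutinib, against 4.08 and 3.85 CPM with DMSO (3.19 ± 0.24, adjusted p = 2.18e-12 by edgeR). SUSD3, a membrane protein gene, had 22.5 and 19.1 CPM with acalabrutinib, against 1.99 and 3.37 CPM with DMSO (2.98 ± 0.25, adjusted p = 1.8e-11 by edgeR). In both genes the lowest acalabrutinib library lay several-fold above the highest DMSO library. RIMS3, better known from synapses, was the most abundant of the 14 largest increases, with 312 and 252 CPM under acalabrutinib and 51.1 and 60.1 CPM under DMSO (2.34 ± 0.20, adjusted p = 1.8e-11 by edgeR). TNFRSF13C encodes the BAFF receptor, which carries a survival signal in B cells. It had 28.6 and 22.7 CPM with acalabrutinib, against 4.78 and 5.05 CPM with DMSO (2.38 ± 0.23, adjusted p = 4.22e-10 by edgeR). LCK, a SRC family kinase best known from T cells, had 8.24 and 4.01 CPM with acalabrutinib, against 1.59 and 0.72 CPM with DMSO (2.34 ± 0.44). The transcription regulator SATB1 had 6.27 and 3.91 CPM with acalabrutinib, against 0.90 and 1.32 CPM with DMSO (2.19 ± 0.41). These low genes were called from few reads, which their wider errors show. Other genes among the 14 were SLC43A2 (2.51), ADM2 (2.34), TMC8 (2.25) and FXYD6 (2.24). CLEC18B (2.56) has near-identical copies among which its reads may be shared, and STRA8 (2.23) lost its call without DMSO replicate 1 (adjusted p = 0.0506 by edgeR).

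Among the largest decreases stood a prostaglandin receptor, a chemokine and the host transcript of a miRNA. PTGER4, the EP4 receptor of prostaglandin E2, had 1.04 and 1.75 CPM with acalabrutinib, against 12.3 and 8.18 CPM with DMSO (-2.86 ± 0.33, adjusted p = 2.93e-08 by edgeR). MIRHG2, the host transcript of the miR-155 shown above, had 22.2 and 27.7 CPM with acalabrutinib, against 83.6 and 107 CPM with DMSO (-1.93 ± 0.17, adjusted p = 7.18e-11 by edgeR). The mature miRNA itself was not measured in these libraries. RASGRP1, an exchange factor that activates RAS, had 3.25 and 2.67 CPM with acalabrutinib, against 10.4 and 10.5 CPM with DMSO (-1.81 ± 0.20, adjusted p = 1.43e-08 by edgeR). In all 3 genes every acalabrutinib library was below every DMSO library, as the choice of the 14 required. LYSMD2 (-1.94), ST3GAL4, a sialyltransferase gene (-1.74), MYO7A (-1.70) and TUBB6, a beta tubulin gene (-1.70), were also among the 14 largest decreases.

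**Figure D2:**
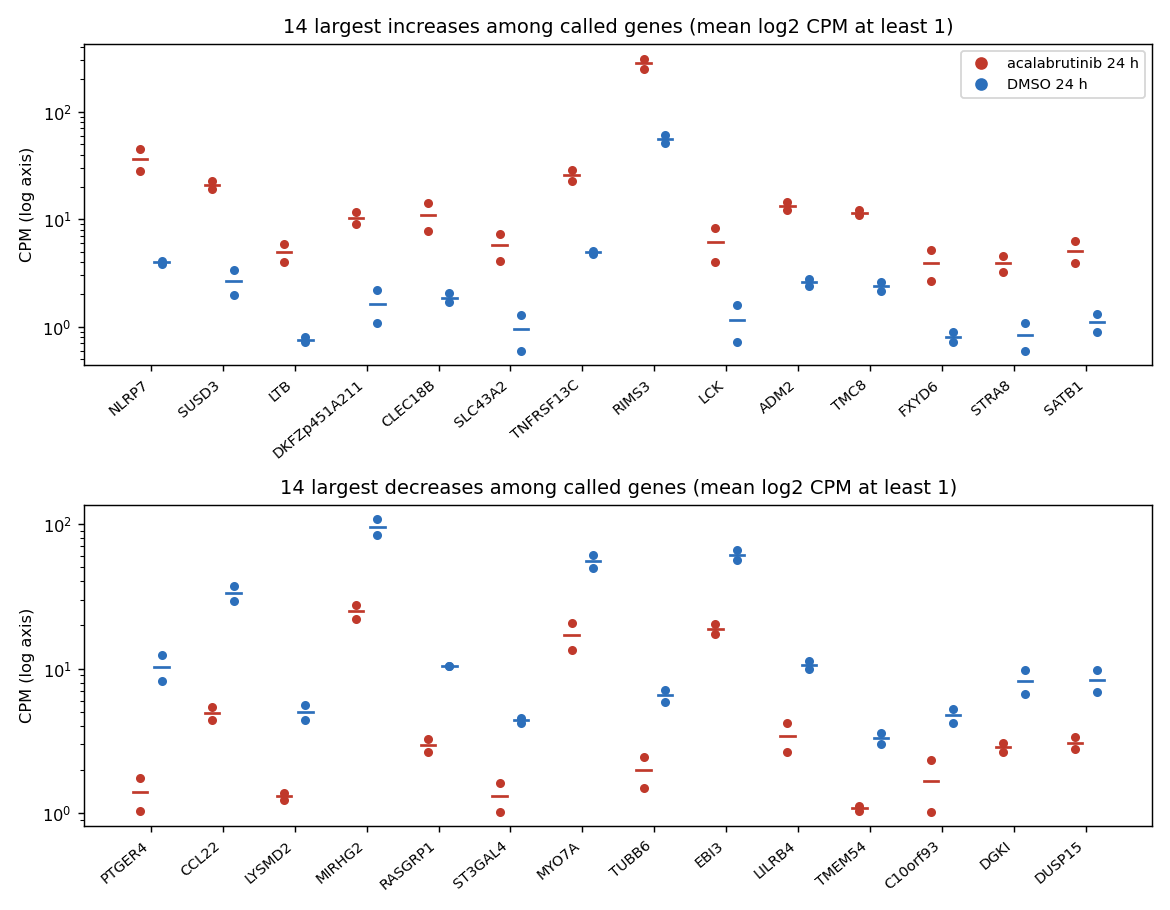
CPM (log axis) of each acalabrutinib and DMSO library (points, with a bar at the group mean) for the 14 largest increases and the 14 largest decreases among called genes whose mean log2 CPM reached 1 or more. In each of these genes the 2 acalabrutinib points lie on one side of the 2 DMSO points, which was a condition of their choice.

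Genes of the receptor complex itself were higher. CD79B had 1146 and 1049 CPM with acalabrutinib, against 597.8 and 580.7 CPM with DMSO (0.90 ± 0.07, adjusted p = 6.74e-12 by edgeR). Its partner CD79A had 1002 and 822 CPM with acalabrutinib, against 636 and 567 CPM with DMSO (0.60 ± 0.13, adjusted p = 0.000572 by edgeR). The groups did not overlap in either gene, as in 1057 of the 1058 genes called higher. The target, BTK, had 252.2 and 247.6 CPM with acalabrutinib, against 226.3 and 225.7 CPM with DMSO, a change of 0.14 ± 0.07 that was not called (adjusted p = 0.122 by edgeR), although DESeq2 called it (adjusted p = 0.0371). PLCG2, the phospholipase that BTK activates, rose by 0.37 ± 0.07 (adjusted p = 0.000144 by edgeR). Of 26 genes of the receptor and its nearest signalling partners, 10 were higher and 3 lower, with a median of 0.27. The adaptor BLNK (0.39 ± 0.07) was also among the higher genes and, like PLCG2, was picked after its values were seen. The 10 became 4 without acalabrutinib replicate 1, and the 3 lower genes, LYN (-0.40), PTPN6 (-0.58) and MALT1 (-0.32), became 0 without acalabrutinib replicate 2 or without DMSO replicate 1. LYN is the first kinase of the route, PTPN6 the phosphatase SHP-1 that opposes it, and MALT1 a protease on the way to NF-kB.

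Of 12 B cell identity markers, a list that holds CD79A and CD79B again, 7 were higher and 0 lower. The list summed to 6576 and 5660 CPM with acalabrutinib and to 4549 and 4147 with DMSO, led by CD74, CD79B and CD79A. MS4A1, the CD20 gene, had 852 and 836 CPM with acalabrutinib, against 640 and 642 CPM with DMSO (0.40 ± 0.09). VPREB3, a gene of the pre-B cell receptor family, had 45 and 34 reads with acalabrutinib, against 4 and 3 reads with DMSO (3.46 ± 0.51, adjusted p = 4.3e-06 by edgeR). The part of this marker shift in the other gene groups was not tested.

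NF-kB genes moved the other way. Of 18 genes for subunits and feedback inhibitors, 10 were lower and 0 higher, with a median of -0.45, and without a single library 8 to 10 were lower. NFKBIA, which encodes the inhibitor IkB-alpha and is itself induced by NF-kB, had 51.5 and 49.7 CPM with acalabrutinib, against 117 and 108 CPM with DMSO (-1.15 ± 0.14, adjusted p = 1.74e-07 by edgeR). TNFAIP3, the deubiquitinase A20, had 51.6 and 44.0 CPM with acalabrutinib, against 114 and 104 CPM with DMSO (-1.19 ± 0.15, adjusted p = 1.97e-07 by edgeR). NFKBID, a nuclear IkB protein gene, had 39.6 and 45.2 CPM with acalabrutinib, against 96.7 and 98.7 CPM with DMSO (-1.20 ± 0.16, adjusted p = 3.97e-07 by edgeR). In each of these inhibitors both acalabrutinib libraries stood below 50% of either DMSO library. TRAF1, an adaptor of TNF receptors, had 17.3 and 20.2 CPM with acalabrutinib and 36.4 and 37.0 CPM with DMSO (-0.97 ± 0.16). The subunit gene NFKB2 (-0.56) and the death inhibitor CFLAR (-0.58), picked after their values were seen, were also lower.

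Cytokine and chemokine genes were split between 8 lower and 2 higher of 17, with a median of -0.70, and the 8 became 5 without acalabrutinib replicate 1 and 4 without DMSO replicate 1. CCL22, a chemokine that draws CCR4-bearing T cells, had 5.46 and 4.42 CPM with acalabrutinib, against 37.2 and 29.5 CPM with DMSO (-2.76 ± 0.38, adjusted p = 1.07e-06 by edgeR). EBI3, the shared chain of interleukins 27 and 35, had 17.4 and 20.3 CPM with acalabrutinib, against 65.7 and 56.4 CPM with DMSO (-1.69 ± 0.17, adjusted p = 9.71e-10 by edgeR). TNF had 4.18 and 4.42 CPM with acalabrutinib, against 11.2 and 11.9 CPM with DMSO (-1.42 ± 0.26). In these 3 genes, of which TNF was picked after its values were seen, the groups lay far apart. The lymphotoxin genes went in opposite directions: LTA fell (-0.80 ± 0.20), a call lost without DMSO replicate 1 (adjusted p = 0.0874 by edgeR), while LTB rose and had 5.92 and 4.01 CPM with acalabrutinib, against 0.80 and 0.72 CPM with DMSO (2.67 ± 0.40, adjusted p = 5.22e-06 by edgeR). IL4I1, a secreted amino acid oxidase, fell by 0.70 on the log2 scale. The immediate early list was called at a share (17.4%) near that of all genes tested (19.0%). Of the immediate early genes and feedback genes of the ERK branch 4 of 23 were lower and 0 higher, and the 4 became 0 without acalabrutinib replicate 2, 2 without DMSO replicate 1 and 1 without DMSO replicate 2.

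Transcription factors of B and plasma cells were called in both directions, with 10 of 28 higher and 4 lower, and 2 lower without DMSO replicate 1. BATF, an AP-1 family partner of IRF4, had 46.9 and 58.4 CPM with acalabrutinib, against 123 and 107 CPM with DMSO (-1.12 ± 0.10, adjusted p = 1.86e-10 by edgeR). IRF4 itself, on which lymphomas of this kind are known to depend, had 480 and 429 CPM with acalabrutinib, against 786 and 685 CPM with DMSO (-0.69 ± 0.12, adjusted p = 6.69e-05 by edgeR). Both of these activation factors were lower in every acalabrutinib library, as were 1584 of the 1585 genes called lower. ID3, an inhibitor of E proteins, had 13.7 and 11.9 CPM with acalabrutinib, against 3.79 and 2.65 CPM with DMSO (1.97 ± 0.24, adjusted p = 1.06e-07 by edgeR). MEF2B, a germinal centre factor, had 13.6 and 12.2 CPM with acalabrutinib, against 3.49 and 4.33 CPM with DMSO (1.73 ± 0.28). PRDM1, the BLIMP1 repressor of plasma cells, had 16.0 and 14.2 CPM with acalabrutinib, against 7.47 and 9.38 CPM with DMSO (0.85 ± 0.16, adjusted p = 0.0002 by edgeR). POU2AF1, a B cell coactivator, was the most abundant gene of the list that rose, with 1085 and 1041 CPM under acalabrutinib and 615.9 and 611.6 CPM under DMSO (0.79 ± 0.09). BCL6, a germinal centre repressor, was higher by 0.39 ± 0.11 (adjusted p = 0.0115 by edgeR), and that call was lost without acalabrutinib replicate 1 (adjusted p = 0.32) and without DMSO replicate 1 (0.149).

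FOXO targets formed one of the groups with calls in a single direction, with 12 of 18 higher, 0 lower and a median of 0.60. PIK3IP1, an inhibitor of PI3K, had 42.7 and 28.2 CPM with acalabrutinib, against 9.86 and 10.2 CPM with DMSO (1.81 ± 0.22, adjusted p = 8.05e-08 by edgeR). KLHL24, which encodes a ubiquitin ligase adaptor, had 40.4 and 33.9 CPM with acalabrutinib, against 11.2 and 13.0 CPM with DMSO (1.62 ± 0.15, adjusted p = 1.86e-10 by edgeR). TP53INP1, an autophagy and stress gene, had 10.1 and 6.996 CPM with acalabrutinib, against 2.69 and 1.56 CPM with DMSO (1.96 ± 0.35). The lowest acalabrutinib library of each gene exceeded the highest DMSO library by more than 2-fold. Other targets that rose, picked after their values were seen, were the cell cycle gene CCNG2 (1.25), the stress sensor SESN1 (0.77) and the antiproliferative gene BTG1 (0.74). FOXO1 was not called (0.33, adjusted p = 0.0689 by edgeR), but was called with no filter (0.0082), with a stricter filter (0.0316), in the 4 libraries alone (0.0433), with a replicate block (0.00777) and without acalabrutinib replicate 2 (0.021). FOXO3 was called (0.51 ± 0.16, adjusted p = 0.0168 by edgeR), a call lost without acalabrutinib replicate 1 (adjusted p = 0.235) and without DMSO replicate 2 (0.231). When 1 library was left out, 19 genes of the list passed the filter and 9 to 13 of them were higher. The PI3K subunits and phosphatases, PIK3IP1 among them, had 4 of 23 higher and 1 lower, and the 4 became 1 without acalabrutinib replicate 1 and 2 without DMSO replicate 1. INPP5D, the phosphatase SHIP1 that opposes PI3K, had 765 and 670 CPM with acalabrutinib, against 584 and 545 CPM with DMSO (0.35 ± 0.07, adjusted p = 0.000597 by edgeR, and 0.0594 without acalabrutinib replicate 1).

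Of 19 receptors for migration and homing 6 were higher and 0 lower, but the 6 became 3 without acalabrutinib replicate 1 and 2 without DMSO replicate 1. The homing receptor CCR7 had 147 and 131 CPM with acalabrutinib, against 114 and 90.8 CPM with DMSO (0.43 ± 0.13, adjusted p = 0.0113 by edgeR), a call lost without acalabrutinib replicate 1 (adjusted p = 0.142) and without DMSO replicate 2 (0.232). The trafficking regulator KLF2 was not called (0.35, adjusted p = 0.455 by edgeR). Of 19 inhibitory receptors 8 were higher and 1 lower, and the 8 became 4 without acalabrutinib replicate 1 and 3 without DMSO replicate 1. PECAM1, the adhesion receptor CD31, had 18.7 and 18.9 CPM with acalabrutinib, against 6.88 and 5.77 CPM with DMSO (1.56 ± 0.22, adjusted p = 1.79e-06 by edgeR). FCRL1, an Fc receptor-like protein of B cells, had 33.1 and 31.7 CPM with acalabrutinib, against 14.6 and 16.7 CPM with DMSO (1.05 ± 0.15). LILRB4 was the lower one, with 2.67 and 4.22 CPM under acalabrutinib and 11.3 and 9.98 CPM under DMSO (-1.61 ± 0.21, adjusted p = 5.78e-07 by edgeR). CEACAM1 had 11 and 10 reads with acalabrutinib, against 0 and 1 reads with DMSO, too few for a fold change.

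Among molecules of activation and costimulation, CD40 and CD80 were lower, while others were higher. CD40, the receptor for T cell help, had 51.9 and 55.6 CPM with acalabrutinib, against 96.3 and 111 CPM with DMSO (-0.94 ± 0.12, adjusted p = 1.54e-07 by edgeR). CD80, a ligand of CD28, had 3.02 and 4.01 CPM with acalabrutinib, against 7.27 and 8.54 CPM with DMSO (-1.15 ± 0.23). Over the list 3 of 23 were higher, TNFRSF13C among them, and 3 lower, with a median of -0.03. Together this was 26.1% of the list, against 19.0% of all genes tested. Some of the higher calls were lost without acalabrutinib replicate 2 or without DMSO replicate 2. In the MHC class II group 4 of 13 were higher and 0 lower, with a median of 0.43. The 4 became 2 without acalabrutinib replicate 1, 7 in the 4 libraries alone, 9 with no filter or with a replicate block, and 11 with a block within line and time. HLA-DMB, which helps to load peptides, had 52.6 and 46.0 CPM with acalabrutinib, against 25.6 and 26.1 CPM with DMSO (0.93 ± 0.14, adjusted p = 3.57e-06 by edgeR). HLA-DMA, its partner chain, had 155 and 134 CPM with acalabrutinib, against 97.6 and 93.7 CPM with DMSO (0.59 ± 0.12).

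Within the BCL2 family 4 of 16 were higher and 3 lower. BCL2A1, a survival gene induced by NF-kB, had 22.3 and 26.4 CPM with acalabrutinib, against 53.6 and 59.2 CPM with DMSO (-1.20 ± 0.15, adjusted p = 1.55e-07 by edgeR). The death-promoting gene BIK had 21.4 and 26.2 CPM with acalabrutinib, against 11.3 and 11.2 CPM with DMSO (1.09 ± 0.20, adjusted p = 0.000151 by edgeR). BCL2L11, which encodes the death-promoting protein BIM, had 77.6 and 76.3 CPM with acalabrutinib, against 59.4 and 54.2 CPM with DMSO (0.44 ± 0.11, adjusted p = 0.00253 by edgeR). The groups did not overlap in these 3 genes, as in nearly all genes called. The 4 higher members became 2 without acalabrutinib replicate 1 or without DMSO replicate 2, and the 3 lower became 1 without acalabrutinib replicate 1 or without DMSO replicate 1.

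MYC and most genes of ribosome biogenesis were lower. The MYC network list had a median of 0.03, with 30% of its members called against 19.0% of all genes tested. MYC had 247 and 209 CPM with acalabrutinib, against 338 and 303 CPM with DMSO (-0.49 ± 0.14, adjusted p = 0.00816 by edgeR). This call was lost without acalabrutinib replicate 2 (adjusted p = 0.143) and without DMSO replicate 1 (0.12). MXD4, a repressor that competes with MYC for its partner MAX, had 12.9 and 10.5 CPM with acalabrutinib, against 4.38 and 3.37 CPM with DMSO (1.57 ± 0.23, adjusted p = 4.38e-06 by edgeR). Of 10 genes of the MYC network 2 were higher and 1 lower, and without acalabrutinib replicate 2 or without DMSO replicate 1 these became 1 and 0. Of 28 genes of ribosome biogenesis 22 were lower and 0 higher, with a median of -0.39, and 14 were lower without DMSO replicate 1. TCOF1, a factor of ribosomal DNA transcription, fell by 0.64 on the log2 scale (SE 0.10), and PES1, which matures the large subunit, fell by 0.53 (SE 0.09). The nucleolar protein gene NCL had 1450 and 1407 CPM with acalabrutinib, against 2206 and 2023 CPM with DMSO (-0.57 ± 0.10, adjusted p = 0.000135 by edgeR). In NCL both acalabrutinib libraries lay below both DMSO libraries, as in 1584 of the 1585 genes called lower.

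Lists of metabolic genes held more lower than higher calls. Of 22 genes of nucleotide synthesis 20 were lower and 0 higher, with a median of -0.39, and the 20 became 13 without acalabrutinib replicate 2 and 11 without DMSO replicate 1. PRPS2, which makes the ribose precursor, had 57.9 and 62.7 CPM with acalabrutinib, against 101 and 92.7 CPM with DMSO (-0.69 ± 0.12, adjusted p = 3.11e-05 by edgeR). MTHFD1 (-0.62), RRM2 (-0.61) and GMPS (-0.57), genes of folate, deoxynucleotide and guanine synthesis, were also lower. Of 22 glycolysis genes 10 were lower and 0 higher, and the 10 became 4 without acalabrutinib replicate 2 and 3 without DMSO replicate 1. LDHA, lactate dehydrogenase A, had 1007 and 1054 CPM with acalabrutinib, against 1699 and 1593 CPM with DMSO (-0.68 ± 0.10, adjusted p = 2.08e-06 by edgeR). PKM2 (-0.42) and ENO1 (-0.39) were lower by less. Of 35 amino acid and ATF4 genes 19 were lower and 1 higher, and the 19 became 11 without acalabrutinib replicate 2 and 9 without DMSO replicate 1. The higher one was DDIT4, the mTORC1 inhibitor REDD1, with 6.85 and 5.86 CPM under acalabrutinib and 2.69 and 1.56 CPM under DMSO (1.54 ± 0.34, adjusted p = 0.000916 by edgeR).

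DNA replication was the list with the largest share of calls, 26 of 27 lower and 0 higher, with a median of -0.61, and 20 to 23 were lower when a single library was left out. MCM10, a factor of replication start, had 82.5 and 94.5 CPM with acalabrutinib, against 163 and 150 CPM with DMSO (-0.82 ± 0.12, adjusted p = 2.19e-06 by edgeR). CDC6, a factor that loads the replicative helicase, had 50.7 and 61.9 CPM with acalabrutinib, against 100.7 and 95.95 CPM with DMSO (-0.80 ± 0.12). MCM6, a helicase subunit whose promoter is shown above, had 230 and 238 CPM with acalabrutinib, against 417 and 385 CPM with DMSO (-0.78 ± 0.11, adjusted p = 2.83e-06 by edgeR). The groups did not overlap in these 3 genes, as in 1584 of the 1585 genes called lower, and each fell by a similar amount. Of 24 mitosis genes 17 were lower and 0 higher, with a median of -0.39, and 10 were lower without DMSO replicate 1. CCNA2, the cyclin of S phase and G2, had 133 and 135 CPM with acalabrutinib, against 226 and 195 CPM with DMSO (-0.66 ± 0.10, adjusted p = 5.78e-06 by edgeR). CCNB1 (-0.51), AURKA (-0.52) and BUB1B (-0.52) fell by similar amounts. Of 19 cyclins, CDKs and inhibitors 7 were lower and 1 higher, and the 7 became 4 without acalabrutinib replicate 1 or without DMSO replicate 1. CCND2, the cyclin D2 that drives entry into S phase, had 514 and 687 CPM with acalabrutinib, against 1063 and 1176 CPM with DMSO (-0.90 ± 0.13, adjusted p = 2.19e-06 by edgeR).

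**Figure D3:**
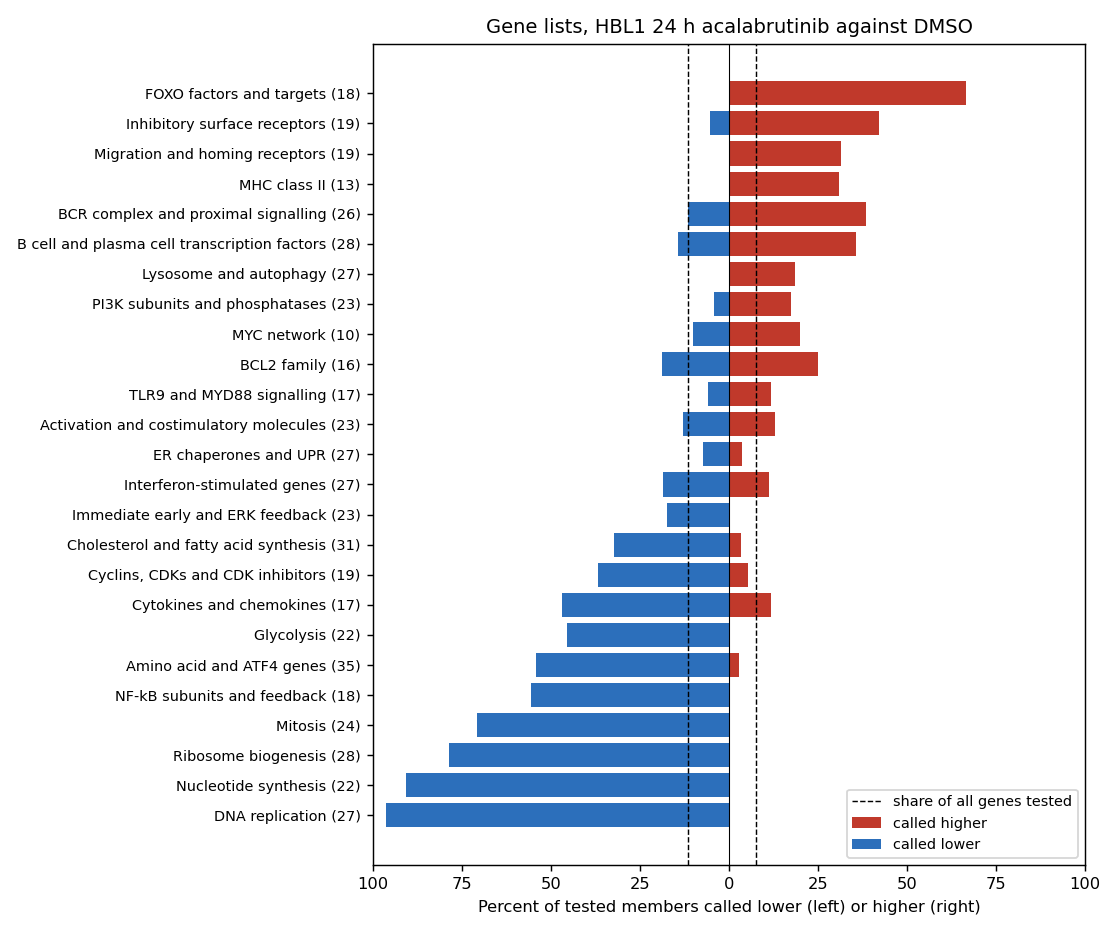
Share of the tested members of each gene list (number in brackets) called lower (left) or higher (right) at 24 h with acalabrutinib against DMSO, in percent, with dashed lines at the shares over all genes tested, 11.4% lower and 7.62% higher. The bar of DNA replication (26 of 27) reaches farthest to the lower side and that of the FOXO list (12 of 18) farthest to the higher side. In both directions together, the PI3K (21.7%), lysosome (18.5%), TLR9 and MYD88 (17.6%) and immediate early (17.4%) lists lay near the 19.0% of all genes tested. The endoplasmic reticulum list (11.1%) lay below it.

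The time course asks whether these changes were present early. At 3 h 4 genes were higher (0.0288% of those tested) and 30 lower (0.216%), together 0.245%. At 6 h 345 were higher (2.49%) and 439 lower (3.16%), together 5.65%. Of the genes called at 6 h, 196 were also higher at 24 h, which is 56.8% of the 6 h set and 18.5% of the 24 h set. The lower genes shared by both times were 223, which is 50.8% of the 6 h set and 14.1% of the 24 h set. A direct test of the effect at 24 h minus that at 6 h called 138 genes with a higher value at 24 h (0.994%) and 165 with a lower one (1.19%). This total of 303 (2.18%) became 80 without 24 h DMSO replicate 1, 96 without 6 h acalabrutinib replicate 1, 99 without 24 h acalabrutinib replicate 1, 118 without 6 h DMSO replicate 2 and 174 without 24 h acalabrutinib replicate 2. Scaled by RLE size factors 142 were higher and 101 lower.

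The NF-kB inhibitors were already lower at the first time. NFKBIA had 54.5 and 56.2 CPM with acalabrutinib and 106 and 123 CPM with DMSO at 3 h, and 78.2 and 67.9 CPM with acalabrutinib and 174 and 159 CPM with DMSO at 6 h. Its log2 change was -1.05 at 3 h, -1.19 at 6 h and -1.15 at 24 h, and the difference between 24 h and 6 h was 0.04 ± 0.20 (adjusted p = 0.989 by edgeR). Of the 18 NF-kB genes 4 were lower at 3 h, 12 at 6 h and 10 at 24 h. The time difference was called for 2 of the 18, both with a higher value at 24 h. NFKBID stood at -1.095 at 3 h, -2.07 at 6 h and -1.20 at 24 h (24 h minus 6 h 0.87 ± 0.21, adjusted p = 0.0232 by edgeR). This call was lost without 24 h acalabrutinib replicate 2 (difference 0.76), 24 h DMSO replicate 1 (0.85) or 24 h DMSO replicate 2 (0.87). It was also lost without 6 h acalabrutinib replicate 1 (0.81) or 6 h DMSO replicate 2 (0.87). Some early changes were no longer called at 24 h: 28 genes were called at 6 h and not at 24 h with the effect differing between the times, 17 of them lower at 6 h. NFATC1, a calcium-dependent factor of the receptor route, was at -0.66 at 3 h, -0.91 at 6 h and -0.22 at 24 h (24 h minus 6 h 0.69 ± 0.12, adjusted p = 0.000896 by edgeR). EGR3, an immediate early gene, was at -0.996, -1.77 and 0.17, and its difference of 1.95 ± 0.41 (adjusted p = 0.00564 by edgeR) missed the threshold without 6 h acalabrutinib replicate 1 (adjusted p = 0.0559). Its DMSO level was 19.6 and 17.8 CPM at 6 h, and at 24 h it had 5.11 and 5.14 CPM with acalabrutinib and 5.28 and 3.73 CPM with DMSO. NFATC1 and EGR3 were picked after their values were seen.

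Most calls in the FOXO and replication groups came at 24 h. KLHL24 was an exception, called higher at 3 h (0.66) and at 6 h (0.56) as well as at 24 h (1.62). At 6 h 1 FOXO gene was higher and 1 lower, and 0 replication genes were called by edgeR, against 12 higher and 26 lower at 24 h. BTG2, an antiproliferative gene, had the difference with the smallest p. It had 901 and 917 CPM with acalabrutinib and 762 and 843 CPM with DMSO at 3 h, 670 and 732 CPM with acalabrutinib and 493 and 534 CPM with DMSO at 6 h, and 640 and 587 CPM with acalabrutinib and 195 and 209 CPM with DMSO at 24 h. The effect was 0.45 at 6 h and 1.60 at 24 h, a difference of 1.15 ± 0.10 (adjusted p = 1.54e-09 by edgeR). Between 6 h and 24 h the level was lower by more in the DMSO libraries than in the acalabrutinib libraries. RNF144B, a ubiquitin ligase gene (1.33 ± 0.15), ZHX2, a repressor (1.25 ± 0.18), and SGPP1, a sphingosine phosphate phosphatase gene (0.85 ± 0.12), also had larger effects at 24 h. TNFRSF13C had 46.7 and 42.6 CPM with acalabrutinib and 30.2 and 34.4 CPM with DMSO at 6 h. At 24 h it had 28.6 and 22.7 CPM with acalabrutinib and 4.78 and 5.05 CPM with DMSO. Its level was thus lower at 24 h in both groups, and its effect differed by 1.91 ± 0.29 (adjusted p = 0.000131 by edgeR). With the lower effects at 24 h stood CDC20, an activator of the anaphase-promoting complex, with 0.33 at 6 h and -0.47 at 24 h (difference -0.79 ± 0.12, adjusted p = 0.000114 by edgeR). PLK1, a mitotic kinase, had 0.38 at 6 h and -0.43 at 24 h (difference -0.81 ± 0.14), although its 24 h call was lost without DMSO replicate 1 (adjusted p = 0.106). The difference was called for 5 of 18 FOXO genes, 9 of 27 replication genes and 6 of 24 mitosis genes, against 2.18% of all genes tested, and these counts became 2, 1 and 2 without 24 h DMSO replicate 1 or without 6 h acalabrutinib replicate 1, and 2, 3 and 2 without 24 h acalabrutinib replicate 1. The 5 FOXO genes became 2, the 9 replication genes 7 and the 6 mitosis genes 6 without 24 h DMSO replicate 2. Without 6 h acalabrutinib replicate 2 they were 3, 14 and 11, without 6 h DMSO replicate 1 they were 3, 15 and 10, without 6 h DMSO replicate 2 they were 3, 1 and 3, and without 24 h acalabrutinib replicate 2 they were 5, 8 and 3.

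Levels over time give the setting of these effects, as a description with no test. The median replication gene was higher at 24 h than at 6 h by 0.80 log2 CPM in DMSO libraries and by 0.20 in acalabrutinib libraries, and the increase was larger in DMSO for all 27 of them. For MCM6 this meant 243 and 204 CPM with acalabrutinib and 259 and 205 CPM with DMSO at 6 h, against 230 and 238 CPM with acalabrutinib and 417 and 385 CPM with DMSO at 24 h. Mitosis genes had a median increase of 0.62 in acalabrutinib libraries and 1.13 in DMSO libraries. The median FOXO gene changed by -0.09 in acalabrutinib libraries and by -0.66 in DMSO libraries, and MHC class II genes by -0.14 and -0.62. Over all genes tested both medians were 0.

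**Figure D4:**
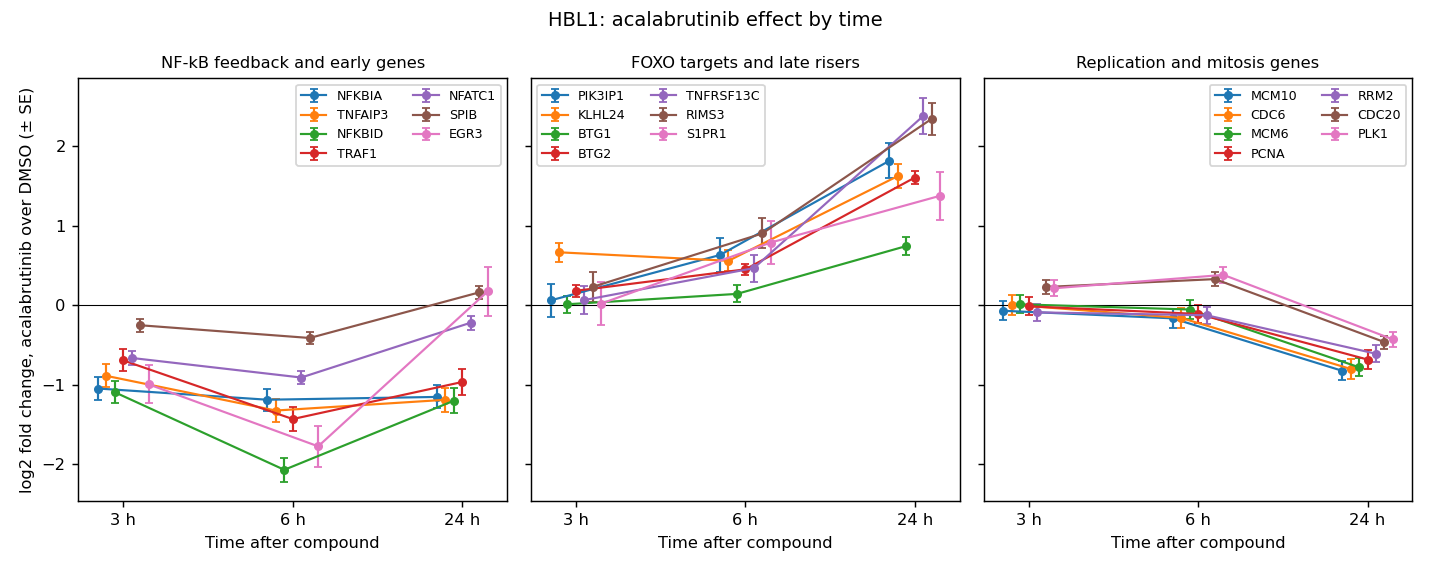
Log2 fold change of acalabrutinib over DMSO in HBL1 (points, with SE bars) at 3, 6 and 24 h. The panels hold NF-kB feedback and early genes, FOXO targets and late risers, and replication and mitosis genes. Late risers are named by their change against DMSO, not by their level. NFKBIA stays near -1 at all 3 times, PIK3IP1 and TNFRSF13C show their largest changes at 24 h, and MCM6 lies near 0 at 3 h and 6 h.

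In TMD8, a second line of the same lymphoma, 24 h of the compound at the same dose raised 2148 genes (15.5%) and lowered 2153 (15.5%), together 31.0%. Of the HBL1 calls, 590 higher genes were also higher in TMD8, which is 55.8% of the HBL1 set and 27.5% of the TMD8 set. The lower genes in common numbered 1025, which is 64.7% of the HBL1 set and 47.6% of the TMD8 set. The difference of the 2 effects, HBL1 minus TMD8, was called for 280 genes with a higher value in HBL1 (2.02%) and 310 with a lower one (2.23%), together 590 (4.25%), and the 590 became 358 without TMD8 DMSO replicate 2. Calls in opposite directions were made for 43 genes, and in 42 of these the difference was called. Each line has its own DMSO libraries, so these sets share no library. NLRP7 and SUSD3 rose in both lines, by 3.19 in HBL1 and 3.59 in TMD8 and by 2.98 in HBL1 and 2.57 in TMD8, and their differences of -0.40 ± 0.46 and 0.41 ± 0.43 were not called.

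The difference between the lines was called, with a higher value in HBL1, for 4 of 17 cytokine and chemokine genes and 7 of 28 B and plasma cell transcription factors, and with a lower value for 0 and 3 of them. The 3 became 1 without HBL1 DMSO replicate 1 or without TMD8 DMSO replicate 2. IL4I1 had 69.5 and 72.5 CPM with acalabrutinib and 120 and 110 CPM with DMSO in HBL1, against 0.53 and 0.66 CPM with acalabrutinib and 25.9 and 44.2 CPM with DMSO in TMD8. Its effects of -0.70 in HBL1 and -5.86 in TMD8 differed by 5.16 ± 0.40 (adjusted p = 8.96e-12 by edgeR). EBI3, at -1.69 in HBL1 and -3.65 in TMD8 (difference 1.95 ± 0.34), and TNF, at -1.42 and -3.59 (2.18 ± 0.40), likewise fell by less in HBL1. Among NF-kB genes the line difference was called for 3 of 18, all with a higher value in HBL1. NFKBID stood at -1.20 in HBL1 and -2.365 in TMD8 (difference 1.16 ± 0.26, adjusted p = 0.00427 by edgeR). That call was lost without TMD8 acalabrutinib replicate 1, with a difference of 0.9. EGR2, an immediate early gene, had 4.06 and 3.81 CPM with acalabrutinib and 2.99 and 2.16 CPM with DMSO in HBL1, which was not called (adjusted p = 0.353 by edgeR). In TMD8 it had 2 and 0 reads with acalabrutinib and 126 and 84 reads with DMSO, so the size of its difference (7.05 ± 0.83) depends on the prior count. UAP1, an enzyme of N-acetylglucosamine activation, rose by 0.44 in HBL1 and fell by 1.14 on the log2 scale in TMD8. The differences for the phosphatase DUSP2 (2.81 ± 0.30) and for UAP1 (1.58 ± 0.14) were called, while the HBL1 effect of DUSP2 (-0.54) lost its call without acalabrutinib replicate 2 (adjusted p = 0.115) and without DMSO replicate 2 (0.0902).

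Several of the largest HBL1 changes were not seen at that size in TMD8. TNFRSF13C had 28.6 and 22.7 CPM with acalabrutinib and 4.78 and 5.05 CPM with DMSO in HBL1, against 17.7 and 17.7 CPM with acalabrutinib and 13.8 and 12.1 CPM with DMSO in TMD8. The effects of 2.38 in HBL1 and 0.45 in TMD8 differed by 1.93 ± 0.31 (adjusted p = 6.93e-05 by edgeR). RIMS3 (difference 1.60 ± 0.34) was higher by more in HBL1. RASGRP1, at -1.81 in HBL1 and -0.18 in TMD8, differed by -1.63 ± 0.24, and LILRB4, at -1.61 in HBL1 and 0.18 in TMD8, by -1.79 ± 0.24. The cyclin gene CCND2 fell in HBL1 by 0.90 on the log2 scale and stood at 322 and 298 CPM with acalabrutinib and 312 and 281 CPM with DMSO in TMD8 (difference -0.96 ± 0.18, adjusted p = 0.000579 by edgeR). IRF8, a B cell factor, had 246 and 240 CPM with acalabrutinib and 189 and 183 CPM with DMSO in HBL1, against 130 and 116 CPM with acalabrutinib and 42.9 and 38.6 CPM with DMSO in TMD8 (difference -1.21 ± 0.14). The differences for the lectin gene CLEC17A (-1.01 ± 0.10), the kinase gene CDC42BPB (-1.93 ± 0.21) and the corepressor gene TLE1 (-1.13 ± 0.13) had the same sign. For replication genes 1 of 27 differences was called, that of GINS3, with the higher effect in TMD8. MCM6 stood at -0.78 in HBL1 and -0.67 in TMD8, a difference of -0.11 ± 0.16.

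**Figure D5:**
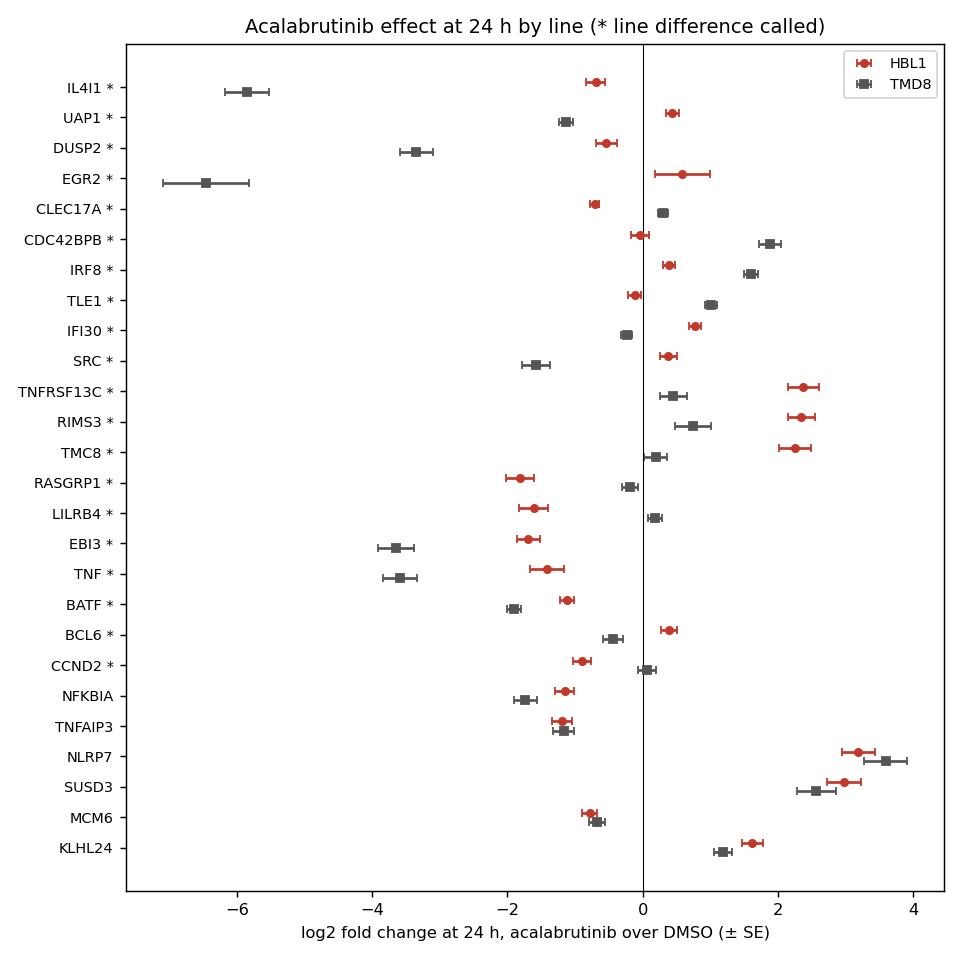
Log2 fold change of acalabrutinib over DMSO at 24 h (points, with SE bars) in HBL1 and in TMD8, with an asterisk where the difference between the lines was called. IL4I1 lies at -0.70 in HBL1 and -5.86 in TMD8 and TNFRSF13C at 2.38 and 0.45, while the values of NLRP7 and MCM6 are close in both lines.

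The last comparison sets acalabrutinib beside copanlisib, which blocks PI3K on the parallel branch, after 24 h in HBL1. The doses differ, 50 nM of acalabrutinib and 20 nM of copanlisib, and both are set against the same DMSO libraries, so only the direct test is used. The direct test called 6 genes higher (0.0432%) and 8 lower (0.0576%) with acalabrutinib than with copanlisib, together 0.101%, and 1031 had an unadjusted p under 0.05. The 14 became 0 without copanlisib replicate 1 (719 at an unadjusted p under 0.05 by edgeR) and 2 without acalabrutinib replicate 2, and DESeq2 called 39. IFI30, a lysosomal thiol reductase of antigen processing, had 226 and 224 CPM with acalabrutinib and 133 and 152 CPM with copanlisib, beside 124 and 138 CPM with DMSO (acalabrutinib over copanlisib 0.66 ± 0.09, adjusted p = 6.53e-05 by edgeR, and 0.0504 without copanlisib replicate 1). ODC1, the first enzyme of polyamine synthesis, had 797 and 774 CPM with acalabrutinib and 603 and 602 CPM with copanlisib (0.38 ± 0.08). Against DMSO it stood at -0.385 with acalabrutinib and -0.769 with copanlisib. RILPL2 (0.44) and ITM2C (1.497) were also higher with acalabrutinib than with copanlisib, while acalabrutinib against DMSO gave 0.02 and -0.34. LIMD2 had 68.8 and 57.8 CPM with acalabrutinib and 104 and 96.9 CPM with copanlisib, beside 40.1 and 40.6 CPM with DMSO (-0.67 ± 0.10, adjusted p = 0.000191 by edgeR). Against DMSO, acalabrutinib gave 0.43 for the interferon-induced gene OAS1, 0.57 for the phosphatase gene PTPRE and 0.94 for SH3TC1. Each was still called lower than with copanlisib, at -0.53, -0.51 and -0.59. All 8 of these calls were lost without copanlisib replicate 1.

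For the NF-kB, FOXO and replication lists the direct test by edgeR made no call, which does not show that the inhibitors act alike. For NFKBIA acalabrutinib minus copanlisib gave a log2 difference of -0.32 ± 0.15 that was not called (adjusted p = 0.654 by edgeR). The difference was -0.29 ± 0.07 for BTG2 (adjusted p = 0.113), -0.09 ± 0.19 for PIK3IP1 (0.979) and 0.13 ± 0.11 for MCM6 (0.874). The median difference was -0.15 over the NF-kB list, -0.25 over the FOXO list and 0.11 over the replication list, and none of their members was called.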

How the data were processed

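The analysis began from raw counts per gene, deposited by the authors as 1 table and made with HTSeq against hg19 per the submitters' processing notes. Not given in the sources used here are the aligner, the software versions and the use of strand. Of 25066 genes, 3449 lacked a gene ID (0.81% of reads) and were kept, and 27 symbols turned into dates were restored by gene ID. In edgeR 4.0.16 under R 4.3.3 all 48 libraries were filtered with filterByExpr, TMM scaled and fitted with 1 mean for each of 24 groups. The quasi-likelihood F test had 24 residual degrees of freedom, and p-values were adjusted by Benjamini-Hochberg within each comparison over 13881 genes. The common dispersion of 0.00539 corresponds to 7.34% variation between libraries of a group. SE is the absolute log2 fold change divided by the root of F, and log2 CPM used a prior count of 2.

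Named genes were the 14 higher and 14 lower with the largest change among called genes of 1 or more in mean log2 CPM whose groups did not overlap, at most 4 called genes from each list, 19 further genes, and 4 per direction with the smallest adjusted p in the line, time and copanlisib comparisons. This gave 154 genes, from which the text shows mainly those whose calls did not rest on 1 library. It also names genes outside the rule, such as TNF, LTA, CCR7, FOXO3 and POU2AF1, picked after their values were seen. The 29 gene lists and the genes in them, written from memory, and the rule were chosen with earlier results of these data known. Alternatives were RLE size factors, no filter, a filter asking for a mean log2 CPM of 1 and at least 1 CPM in 2 libraries, DESeq2 1.42.0, fits of HBL1 alone or of the 4 libraries, replicate blocks, and leaving out each library in turn. List counts and list members under these settings were added after seeing the data. When a library was left out, the lone sample of its group was assumed to vary like the other groups. Some genes are not reported here.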

Additional observations from a re-analysis of the deposited data

Results flagged for a closer look

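The effect of acalabrutinib at 24 h differed between HBL1 and TMD8 for 590 genes by the test of the difference itself (edgeR, adjusted p under 0.05). Among the genes named by rule, the HBL1 effect was above the TMD8 effect by a log2 difference of 5.16 for IL4I1, 1.58 for UAP1, 2.81 for DUSP2 and 7.05 for EGR2, the last from very few TMD8 reads. It was below the TMD8 effect for CLEC17A (-1.01), CDC42BPB (-1.93), IRF8 (-1.21) and TLE1 (-1.13).

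The effect in HBL1 differed between 24 h and 6 h for 303 genes by the same kind of test. The effect at 24 h minus that at 6 h was 1.15 for BTG2, 1.33 for RNF144B, 1.25 for ZHX2 and 0.85 for SGPP1. It was -0.79 for CDC20, -1.39 for TMPRSS6, a membrane serine protease gene, -0.61 for TPM4, a tropomyosin gene, and -0.81 for PLK1. No cause of these differences was tested.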

How the results depend on the processing

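The balance of higher and lower calls turned under some settings in 3 comparisons. For example, with no filter it was 1216 to 1131 at 24 h, with DESeq2 326 to 272 between the lines, and with RLE size factors 142 to 101 between the times. The 2643 calls at 24 h stood between 2113 and 3127 with DESeq2, RLE size factors, either filter, the replicate block, HBL1 alone or the 4 libraries alone, and between 1254 and 2126 when 1 library was left out. The 590 line differences stood between 358 and 477 and the 303 time differences between 80 and 242 without 1 library. The 14 differences from copanlisib stood between 0 and 21 without 1 library, and became 39 with DESeq2, 57 without the filter, 48 with the replicate block and 9 in HBL1 alone. Labels give no batch to the replicate numbers, and deviations of same-numbered libraries correlated at 0.16 between acalabrutinib and DMSO. A replicate block gave 3127 calls at 24 h, 797 line differences and 565 time differences. A block within each line and time gave 4201, 1714, 1581 and, for copanlisib, 459. Of 142 named genes called at 24 h, 93 kept the call in every setting that tested them. The stricter filter tested only 131 of the 142, and the fit of the 4 libraries 141. More calls were lost when a library was left out than under any other setting. The causes were not tested. With 2 libraries a group, small changes in genes of few reads could not be detected, and a missed call does not show that a gene did not change.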

Other observations

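Of 27 interferon-stimulated genes 3 were higher and 5 lower, and the 5 became 0 without acalabrutinib replicate 1 and 3 without any other single library. STAT2, a factor of interferon signalling, had 145 and 148 CPM with acalabrutinib, against 74.3 and 103 CPM with DMSO (0.73 ± 0.14, adjusted p = 0.000273 by edgeR). Of 31 genes of cholesterol and fatty acid synthesis 10 were lower and 1 higher, and the 10 became 6 without DMSO replicate 1. FASN, fatty acid synthase, had 430 and 371 CPM with acalabrutinib, against 629 and 526 CPM with DMSO (-0.53 ± 0.11). The endoplasmic reticulum list was called less often (11.1%) than all genes tested (19.0%). Of 27 chaperone and stress genes of the endoplasmic reticulum 1 was higher and 2 lower. The 2 became 0 without either acalabrutinib library or without DMSO replicate 1, and the 1 became 0 without DMSO replicate 1. The catalytic subunits of the oligosaccharyltransferase, STT3A (-0.10, adjusted p = 0.554) and STT3B (-0.09, adjusted p = 0.513), were not called by edgeR.

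Genes of endosomes and lysosomes were called about as often as all genes tested (19.0%). The share was 18.5% for the lysosome and autophagy list and 17.6% for the TLR9 and MYD88 list. Of 27 lysosome and autophagy genes 5 were higher and 0 lower, and the 5 became 2 without acalabrutinib replicate 1 or without DMSO replicate 2. The protease gene CTSS had 179 and 178 CPM with acalabrutinib, against 130 and 137 CPM with DMSO (0.42 ± 0.09, adjusted p = 0.000482 by edgeR). TLR9, the endosomal sensor of DNA, had 141 and 124 CPM with acalabrutinib, against 89.7 and 90.3 CPM with DMSO (0.56 ± 0.09, adjusted p = 2.03e-05 by edgeR). PLD4, an endolysosomal nuclease, had 48.3 and 36.2 CPM with acalabrutinib, against 20.7 and 18.9 CPM with DMSO (1.08 ± 0.15, adjusted p = 6.92e-07 by edgeR). In these 3 genes the acalabrutinib libraries lay above the DMSO libraries, as in 1057 of the 1058 genes called higher. Of 17 genes of TLR9 and MYD88 signalling these last 2 were higher and 1, the kinase gene IRAK1, was lower, a call lost when any 1 library other than acalabrutinib replicate 1 was left out. MYD88, the adaptor of this sensor, was not called (-0.12, adjusted p = 0.479 by edgeR).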
